A study of Homo sapiens with 45 samples.

Results

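The transcripts described here are 10 human genes whose introns carry small nucleolar RNAs (snoRNAs): GAS5, SNHG1, SNHG5, SNHG6, SNHG8, SNHG12, SNHG15, ZFAS1, EPB41L4A-AS1 and TAF1D. They were chosen by gene symbol, with earlier results of these data known. Counts of members set beside all genes below are therefore descriptions, not tests of the set. Each of the 10 symbols occurred in a single entry of the 60676 in the count table, and all 10 were among the 11078 genes that passed the filter on low counts. The annotation types 9 of them as noncoding RNA and TAF1D, a subunit of the SL1 factor of RNA polymerase I, as protein-coding.

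snoRNAs guide chemical marks onto ribosomal RNA. C/D box snoRNAs direct methylation of the ribose, and H/ACA box snoRNAs direct the change of uridine to pseudouridine. The snoRNA is cut from an excised intron, and the spliced exons of its host leave the nucleus as a separate RNA. In noncoding hosts these exons hold short reading frames, so that a ribosome which starts on them stops far upstream of the last exon junction. Such RNAs are known targets of nonsense-mediated decay (NMD), a breakdown pathway that needs translation, and many hosts are known to accumulate when translation is blocked. Several also begin with a terminal oligopyrimidine (TOP) tract, the cytosine followed by pyrimidines that places the translation of ribosomal protein mRNAs under the control of mTOR.

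RNA was sequenced from HAP1, a near-haploid human cell line derived from the leukaemia line KBM-7. The 6 lines were AAVS1 (the reference, named after a genomic site often edited as a neutral control), RNF25 KO, ZNF598 KO, eS31 K113R (a changed lysine in a protein of the small ribosomal subunit), GCN2 KO and RNF25 GCN2 DKO, which carries both knockouts. RNF25 and ZNF598 attach ubiquitin to proteins of stalled ribosomes, and GCN2 is a kinase of the translation factor eIF2 that starts the integrated stress response and lowers translation initiation. All 6 lines were left untreated or exposed for 4 h to azacytidine at 5 uM (azaC), a nucleoside that cells build into RNA and DNA in place of cytidine. AAVS1, RNF25 KO and GCN2 KO cells were also given 25 nM halofuginone (HF) for 4 h, which blocks the charging of proline tRNAs and so activates GCN2. Each of the 15 groups held 3 libraries, labelled as biological replicates, and whether a line is 1 clone is not given in the sources used here. Nothing says how the cultures were separated, so the p-values measure only the spread between these libraries.

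The libraries held 1135498 to 2478875 counts (median 1541554), and the 10 transcripts together took 0.195 to 0.415% of them. Untreated eS31 K113R replicates 2 and 3 carry eS32 K223R in their titles and eS31 K113R in their count columns. Several results that rest on them are given with and without them. Without them only replicate 1 of that group remains, so such values are effect sizes alone. EIF2AK4, which encodes GCN2, stood at 14.1 to 28.4 CPM (counts scaled to a common library size) in the libraries of GCN2 KO and at 42.2 to 45.4 CPM in untreated AAVS1, while in untreated RNF25 GCN2 DKO it stood at 36.2 to 43.6 CPM. ZNF598 stood at 30.5 to 47.5 CPM in ZNF598 KO and at 55.9 to 74.9 CPM in untreated AAVS1. RNF25 had 0 to 7 counts in every library, so its level does not check those labels. SESN2, a target of the stress response, stood at 49.9 to 62.3 CPM in untreated AAVS1, at 469 to 688 CPM in AAVS1 with HF and at 59.8 to 74.2 CPM in RNF25 GCN2 DKO with azaC. Of 12 markers of blood cells, 0 passed the filter and 6 were at 0 in all libraries (summed level 0 to 2.37 CPM). KRT18 was the 1 of 8 epithelial markers and COL1A1 the 1 of 7 fibroblast markers that passed. Untreated AAVS1 replicate 2 and RNF25 KO azaC replicate 2 stood apart in how counts depended on the GC content of genes, with slopes of -0.402 and 0.309 against a median of 0.0233.

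The first bases of the host transcripts are shown because they bear on the TOP class. In the GENCODE 29 annotation on GRCh38, 8 of the 10 genes had at least 1 transcript that starts with C and at least 4 further pyrimidines, and SNHG15 and EPB41L4A-AS1 had none. The members' transcripts held such a start in 24 of 150 cases (16%), against 2.58% of 177909 transcripts of protein-coding and long noncoding genes. Counted by gene, 10.3% of 33726 genes had such a transcript, a share that grows with the number of annotated transcripts. The 30 bases below run 5′ to 3′ from an annotated start, with the tract in capitals, and the transcripts were picked by eye to show tracts of different length beside starts without one. They lie at chr1:173867960-173867989 (GAS5-219, minus strand), chr6:85678704-85678733 (SNHG5-202, minus), chr4:118278758-118278787 (SNHG8-205, plus), chr1:28581844-28581873 (SNHG12-202, minus), chr20:49278642-49278671 (ZFAS1-201, plus), chr11:62855856-62855885 (SNHG1-209, minus) and chr5:112160526-112160555 (EPB41L4A-AS1-201, plus).
GAS5-219: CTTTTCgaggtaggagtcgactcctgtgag
SNHG5-202: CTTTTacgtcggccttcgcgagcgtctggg
SNHG8-205: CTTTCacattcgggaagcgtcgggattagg
SNHG12-202: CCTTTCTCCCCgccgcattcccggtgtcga
ZFAS1-201: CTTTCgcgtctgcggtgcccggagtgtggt
SNHG1-209: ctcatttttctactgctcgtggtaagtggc
EPB41L4A-AS1-201: tgtcgggtcccaaaatacgtggtctaaagt
The tract of SNHG12-202 is 11 bases long, that of GAS5-219 is 6, and those of SNHG5-202, SNHG8-205 and ZFAS1-201 are 5.

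The reading frames are shown because a stop far upstream of the last exon junction is the usual mark of a predicted NMD target. Decay itself was not measured here. Of the 127 spliced transcripts of the 9 noncoding members, 89% had a first AUG-initiated frame that ended more than 50 bases upstream of the last exon junction, the distance usually used to predict NMD. The same held for 71.3% of 25653 spliced transcripts of long noncoding genes, so most such RNAs share the feature. The first frames of 3 hosts follow, from start to stop codon, both in capitals. These 3 are the members that passed the test with HF in AAVS1 cells, and other members share the feature.
SNHG1-205: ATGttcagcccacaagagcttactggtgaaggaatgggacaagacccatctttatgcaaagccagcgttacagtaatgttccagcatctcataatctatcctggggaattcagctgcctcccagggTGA
SNHG5-202: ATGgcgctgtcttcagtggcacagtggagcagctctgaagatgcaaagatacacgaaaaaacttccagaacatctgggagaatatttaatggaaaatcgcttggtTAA
ZFAS1-201: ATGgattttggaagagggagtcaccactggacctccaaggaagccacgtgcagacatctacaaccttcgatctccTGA
They encode 42 amino acids in SNHG1-205, 35 in SNHG5-202 and 25 in ZFAS1-201. Their stops lie 181, 169 and 89 bases before the last junction, respectively. In SNHG6-203, SNHG12-202 and SNHG15-203, of hosts that did not pass, the stop lies 238, 658 and 246 bases before it. In SNHG8-203 the stop lies downstream of the last junction, while in SNHG8-201 and SNHG8-205 it lies 202 and 101 bases before it. Of the transcripts of TAF1D, 7 are annotated as NMD targets.

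The RefSeq gene table (GRCh38.p14) places 41 snoRNA genes within the spans of the 10 hosts. GAS5 holds 11, SNHG1 9, TAF1D 8, SNHG12 4, ZFAS1 3, SNHG5 2, and the other members 1 each. The count table lists 34 of these snoRNAs, and they had 12 counts in total over the 45 libraries. The libraries were made from polyadenylated RNA, and the values below are counts of the host genes and not of the snoRNAs. Some host transcripts are annotated with a retained intron, 19 of 29 in GAS5 and 13 of 25 in SNHG1. Spliced and intron-retaining RNA of a host therefore cannot be told apart in these counts. Exons of a gene on the opposite strand cover 49.6% of the exon length of EPB41L4A-AS1 (EPB41L4A), 29.3% of SNHG6 (MCMDC2) and 11.1% of ZFAS1 (ZNFX1), and 6.07% or less of the others. The strand setting of the counting is not given, so reads of these 3 transcripts and of their partners cannot be told apart.

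In untreated AAVS1 cells the hosts differed widely in level per length. Per kilobase of exon, SNHG8 stood highest at 757 ± 178 CPM per kb and SNHG6 followed at 372 ± 76.5 (SD, n = 3, as for all levels below). ZFAS1 stood at 166 ± 38, SNHG1 at 100 ± 4.98, SNHG5 at 68.8 ± 0.21 and GAS5 at 67.7 ± 12.2 CPM per kb. TAF1D (33.9 ± 9.21), SNHG12 (30.7 ± 4.45), EPB41L4A-AS1 (22.3 ± 2.9) and SNHG15 (7.37 ± 1.54) were lower. The mean of SNHG5 lay within the spread of GAS5, and TAF1D and SNHG12 lay within each other's. The lengths are unions over all annotated transcripts, so a gene with many rare exons reads low on this scale. SNHG15 had 17 to 163 counts a library and EPB41L4A-AS1 58 to 237, against 332 to 1481 for SNHG1 and 536 to 1927 for SNHG8, so their values are the least precise.

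Levels across the 15 groups are given in CPM after TMM scaling of the library sizes (trimmed mean of M-values). 6 members were highest in AAVS1 cells with HF: GAS5, SNHG1, SNHG5, SNHG8, ZFAS1 and EPB41L4A-AS1. SNHG12 was at 131 CPM in that group, in untreated AAVS1 and in RNF25 KO with HF. The lowest groups were GCN2 KO with HF for SNHG1, SNHG8, SNHG12, SNHG15 and TAF1D, and an RNF25 GCN2 DKO group for GAS5, SNHG5, SNHG6, ZFAS1 and EPB41L4A-AS1. SNHG1 covered the widest range of group means, 1.51 on the log2 scale, from 279 ± 17 CPM in GCN2 KO with HF to 795 ± 38.5 CPM in AAVS1 with HF. SNHG6 covered the narrowest, 0.32, from 389 ± 70.9 CPM in untreated RNF25 GCN2 DKO to 486 ± 22.2 CPM in untreated GCN2 KO. Averaged over the 10 members after centring each on its own mean, AAVS1 with HF stood at 0.55 and RNF25 KO with HF at 0.34 on the log2 scale. RNF25 GCN2 DKO untreated stood at -0.31 and GCN2 KO with HF at -0.35.

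**Figure D1:**
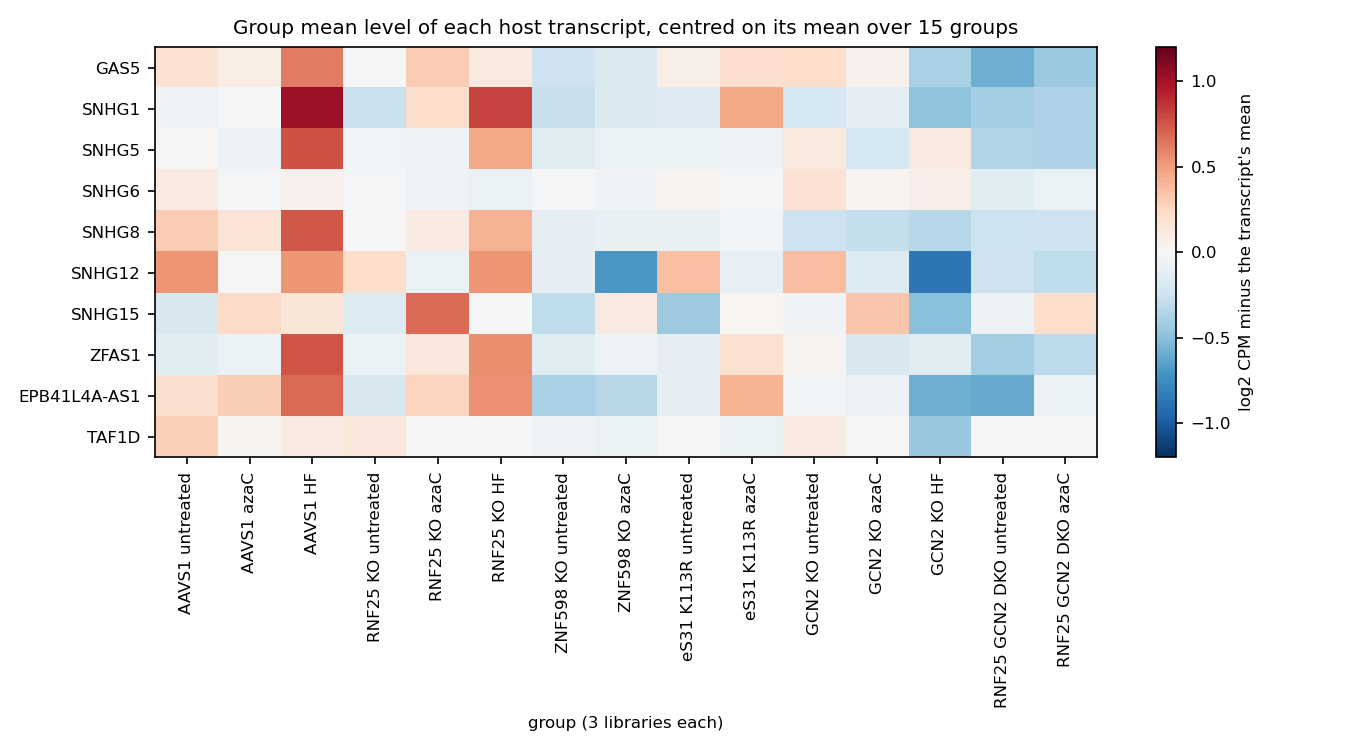
Group mean level of the 10 host transcripts (rows) in the 15 groups (columns, 3 libraries each), as log2 CPM minus the transcript's own mean over the groups. Red cells gather in the AAVS1 HF and RNF25 KO HF columns, blue cells in GCN2 KO HF and RNF25 GCN2 DKO, and the SNHG6 row is nearly blank.

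The order of the SNHG1 levels shows how few groups stood apart. Below AAVS1 with HF came RNF25 KO with HF at 684 ± 76.6 CPM, eS31 K113R with azaC at 532 ± 47.6 CPM and RNF25 KO with azaC at 450 ± 27.9 CPM. The other 10 groups above GCN2 KO with HF ran from 293 ± 51 CPM (untreated RNF25 GCN2 DKO) to 382 ± 77.4 CPM (AAVS1 with azaC), each within the spread of its neighbours. GAS5, which takes its name from its rise in growth-arrested cells, ran from 145 ± 34 CPM in untreated RNF25 GCN2 DKO to 334 ± 12.4 CPM in AAVS1 with HF, and its next highest group was RNF25 KO with azaC at 268 ± 23.7 CPM.

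Halofuginone raised SNHG1, SNHG5 and ZFAS1 in AAVS1 cells. SNHG1, a host of C/D box snoRNAs, stood at 360, 396 and 371 CPM in the untreated libraries and at 837, 788 and 761 CPM with HF. The groups did not overlap, and the log2 fold change was 1.08 ± 0.16 (SE, 3 against 3 libraries; edgeR quasi-likelihood test, adjusted p = 1.07e-05). SNHG5, whose intron holds the box C/D pair SNORD50A and SNORD50B, stood at 194, 193 and 193 CPM without drug and at 342, 332 and 305 CPM with it. All treated libraries lay above all untreated ones, with a log2 fold change of 0.76 ± 0.14 (edgeR, adjusted p = 0.000601). ZFAS1, host of the SNORD12 family, stood at 436, 275 and 407 CPM untreated and at 752, 647 and 670 CPM with HF. Its groups were also apart, with a log2 fold change of 0.89 ± 0.21 (edgeR, adjusted p = 0.0088).

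The remaining 7 members did not pass the test in AAVS1 cells with HF, but 3 of them did not overlap between groups either. GAS5 stood at 257, 197 and 283 CPM untreated and at 332, 323 and 348 CPM with HF (log2 fold change 0.45 ± 0.18; edgeR, adjusted p = 0.309). SNHG8, host of the H/ACA box SNORA24, stood at 607, 600 and 888 CPM untreated and at 920, 934 and 990 CPM with HF (0.44 ± 0.18; adjusted p = 0.308). EPB41L4A-AS1, host of SNORA13, gave 80, 63.4 and 80.3 CPM against 102, 91.3 and 122 CPM (0.50 ± 0.22; adjusted p = 0.363). SNHG6 (-0.06), SNHG12 (0.00), SNHG15 (0.34) and TAF1D (-0.19) overlapped between groups. In all, 3 of 10 members passed, each higher, against 171 of 11078 genes (1.54%), and 6 of 10 did not overlap against 14.3% of all genes tested. The members' median log2 fold change was 0.44, beside 0.01 over all genes.

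Of these calls, that of ZFAS1 depended on single libraries in the fit without a replicate block. Without untreated AAVS1 replicate 2, which had its lowest value and the extreme GC slope, the log2 fold change was 0.72 (adjusted p = 0.118), and without AAVS1 HF replicate 1 it was 0.83 (adjusted p = 0.0681). In a fit of the 6 libraries alone, the adjusted p was 0.0895 for SNHG5 and 0.119 for ZFAS1. With the replicate number as a block, ZFAS1 gave 0.91 (edgeR, adjusted p = 4.12e-06), and SNHG8 also passed (0.46, adjusted p = 0.0286).

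RNF25 KO cells gave a similar picture with fewer calls. SNHG1 stood at 297, 317 and 357 CPM untreated and at 769, 663 and 621 CPM with HF. It rose by 1.08 ± 0.16 on the log2 scale, the same as in AAVS1 cells (edgeR, adjusted p = 1.53e-05). It was the 1 member to pass, against 192 genes (1.73%). SNHG5 (198, 215 and 147 against 253, 309 and 226 CPM) gave 0.49 ± 0.14 (adjusted p = 0.0607), EPB41L4A-AS1 (60.4, 42.3 and 69.2 against 89.5, 88.9 and 108 CPM) gave 0.74 ± 0.23 (adjusted p = 0.085), and ZFAS1 (391, 366 and 406 against 565, 603 and 637 CPM) gave 0.63 ± 0.20 (adjusted p = 0.113). In these 3 all treated libraries were above all untreated ones. SNHG12 also did not overlap (114, 96.4 and 104 against 124, 149 and 120 CPM; 0.32 ± 0.22, adjusted p = 0.675), so that with SNHG1 5 of 10 members did not overlap, against 15.3% of all genes. SNHG8 overlapped (0.42 ± 0.18, adjusted p = 0.355). With the replicate number as a block, SNHG5, EPB41L4A-AS1, ZFAS1 and SNHG8 also passed, although not every same-numbered pair was correlated over 0.1. The median over the members was 0.37, beside 0.00 over all genes.

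Whether the HF response differed between RNF25 KO and AAVS1 was tested directly. No member differed (edgeR, 0 of 10, with 0 at an unadjusted p under 0.05 and 0 by limma-voom and DESeq2; 0 of 11078 genes, 0%). The interval of the difference was -0.46 to 0.46 for SNHG1, -0.67 to 0.14 for SNHG5 and -0.84 to 0.32 for ZFAS1 (log2, 95%). Averaged over the 2 lines, HF raised 5 of 10 members, against 618 genes (5.58%): SNHG1 by 1.08 ± 0.11 (edgeR, adjusted p = 1.43e-09), ZFAS1 by 0.76 ± 0.15 (adjusted p = 0.000336), SNHG5 by 0.63 ± 0.10 (adjusted p = 2.1e-05), EPB41L4A-AS1 by 0.62 ± 0.16 (adjusted p = 0.0101) and SNHG8 by 0.43 ± 0.13 (adjusted p = 0.0361). The SNHG8 call was lost in 12 of 19 alternatives, and that of EPB41L4A-AS1 without untreated RNF25 KO replicate 2 (0.52, adjusted p = 0.056). GAS5 gave 0.29 ± 0.13 (adjusted p = 0.231), and SNHG6 and TAF1D were slightly below 0 (-0.06 and -0.16).

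**Figure D2:**
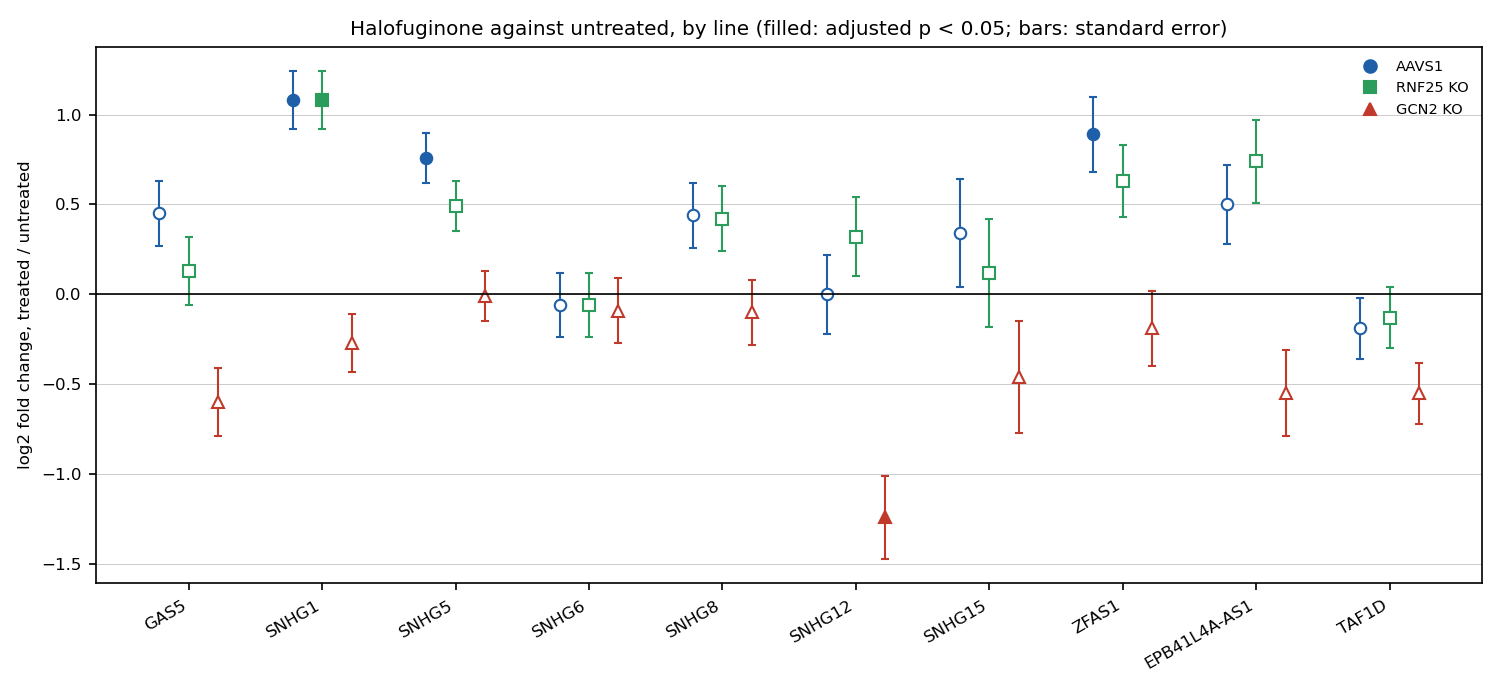
Log2 fold change with halofuginone against untreated for each of the 10 host transcripts in AAVS1, RNF25 KO and GCN2 KO cells, with standard errors; filled markers passed an adjusted p of 0.05. SNHG1 stands at 1.08 in both AAVS1 and RNF25 KO, and all 10 GCN2 KO values lie below 0.

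In cells labelled GCN2 KO no member rose. All 10 log2 fold changes were below 0, from -0.01 (SNHG5) to -1.24 (SNHG12), with a median of -0.36 beside 0.00 over all genes. SNHG12, host of SNORD99 and of H/ACA box snoRNAs, stood at 142, 116 and 94.2 CPM untreated and at 51.7, 38.7 and 58.7 CPM with HF. It fell by 1.24 on the log2 scale (SE 0.23; edgeR, adjusted p = 0.00139), and was the 1 member of 10 to pass, against 137 genes (1.24%). GAS5 (248, 265 and 240 against 165, 164 and 168 CPM) gave -0.60 ± 0.19 (adjusted p = 0.122). TAF1D (240, 278 and 233 against 160, 204 and 148 CPM) gave -0.55 ± 0.17 (adjusted p = 0.127), and EPB41L4A-AS1 (61, 56.4 and 73.9 against 42.5, 43 and 44.8 CPM) gave -0.55 ± 0.24 (adjusted p = 0.373). In these 3 the treated libraries all lay below the untreated ones, as they did for SNHG8 by a small margin (-0.10 ± 0.18). With SNHG12, 5 of 10 members did not overlap, against 17% of all genes. SNHG1, at 391, 355 and 258 CPM untreated and 282, 294 and 260 CPM with HF, overlapped (-0.27 ± 0.16, adjusted p = 0.649). With the replicate number as a block, GAS5 and TAF1D also passed, although here too not every same-numbered pair was correlated over 0.1.

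The response of SNHG1 to HF differed between GCN2 KO and AAVS1 cells by -1.35 ± 0.23 on the log2 scale (edgeR, adjusted p = 0.000389). It was the 1 of 10 members to pass this test, against 37 genes (0.334%), and it passed in all 19 alternatives, at -1.50 to -1.22, while DESeq2 called 5 members. The other 9 differences were also below 0. They were largest for SNHG12 (-1.24 ± 0.31, adjusted p = 0.0644), ZFAS1 (-1.08 ± 0.29, adjusted p = 0.11), EPB41L4A-AS1 (-1.06 ± 0.32, adjusted p = 0.226), GAS5 (-1.05 ± 0.26, adjusted p = 0.0615) and SNHG5 (-0.77 ± 0.20, adjusted p = 0.0877). With the replicate number as a block these 5 also passed, although the same-numbered libraries of GCN2 KO did not all pair. SNHG6 was at -0.03 ± 0.25. The median over the members was -0.93, beside -0.01 over all genes. At an unadjusted p under 0.05 there were 7 of 10 members and 7.19% of all genes.

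**Figure D3:**
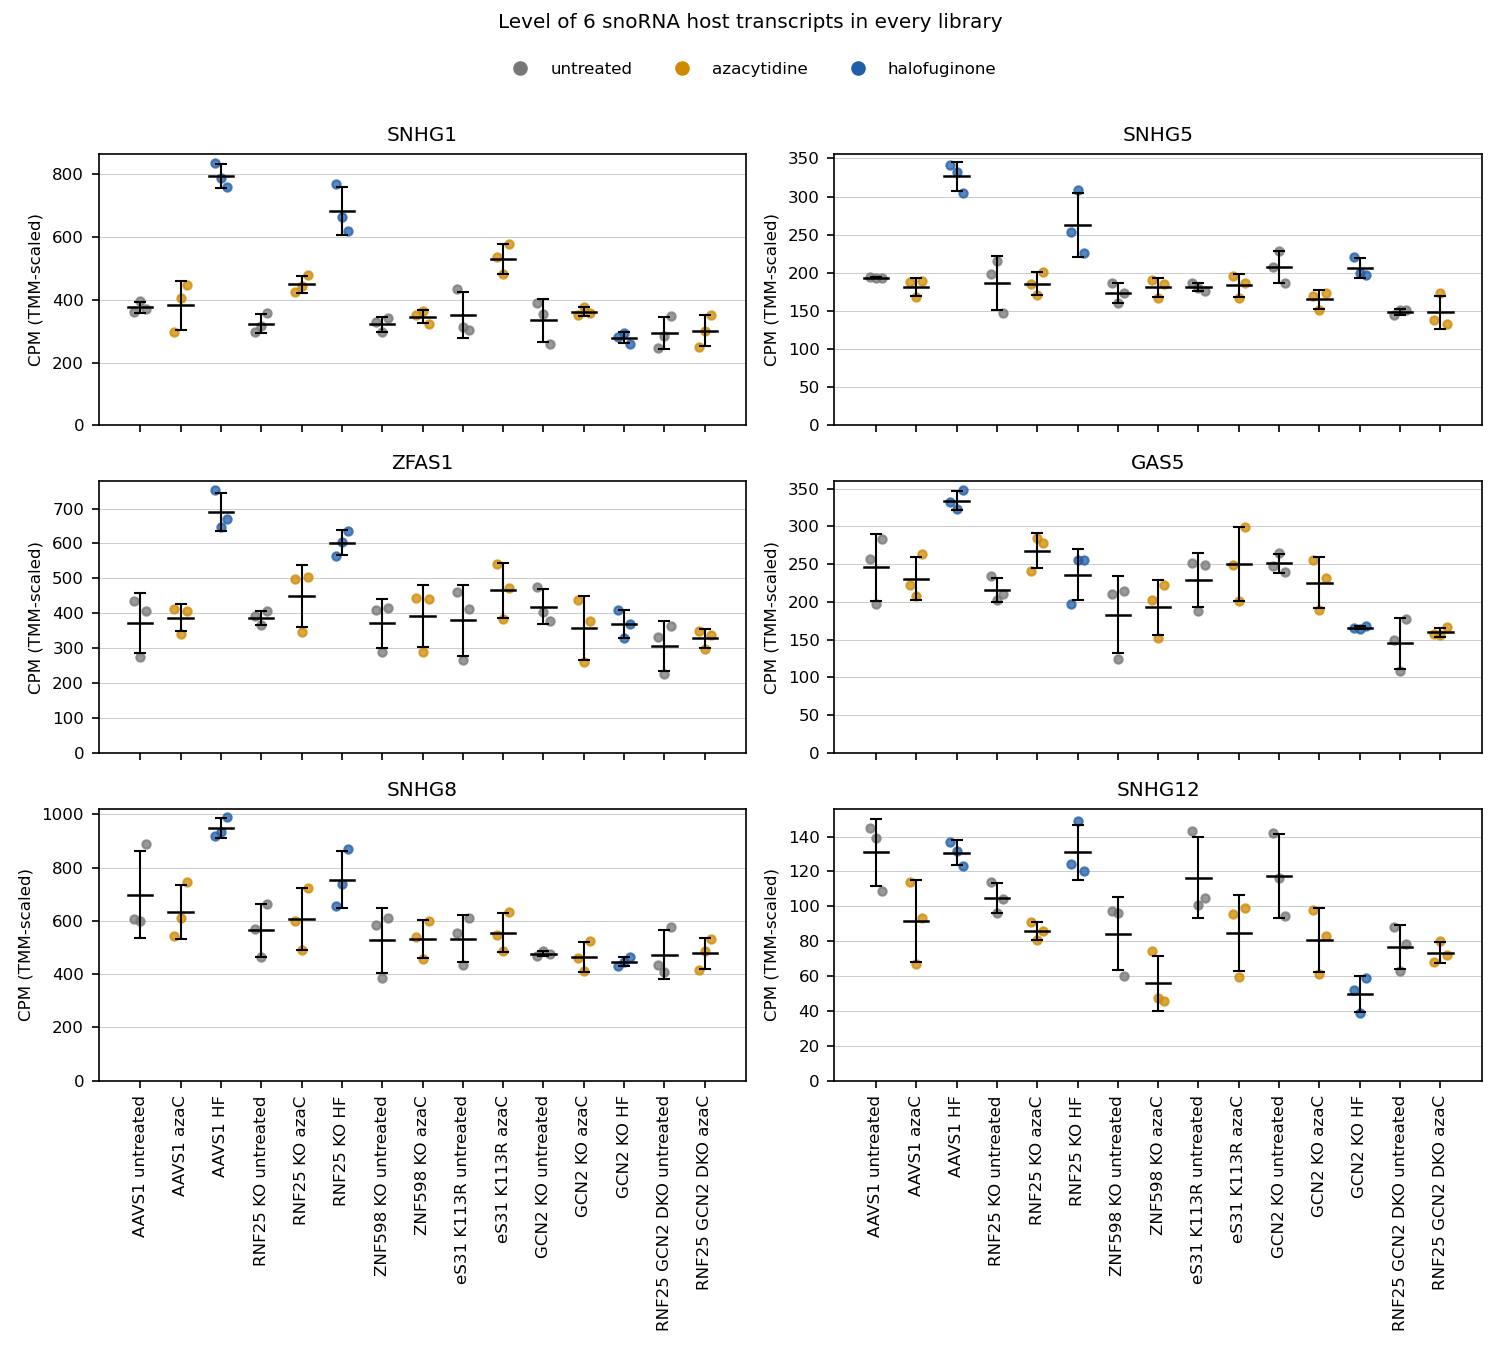
Level in CPM on TMM-scaled library sizes of 6 host transcripts in every library (points, 3 a group; black lines, mean ± SD), with untreated cells in grey, azacytidine in orange and halofuginone in blue. In AAVS1 the HF points of SNHG1, SNHG5, ZFAS1, GAS5 and SNHG8 lie above the untreated points, and in GCN2 KO the HF points of SNHG12 lie at 38.7 to 58.7, below its untreated points.

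Azacytidine moved the hosts little. No member passed the test in any single line (edgeR). At an unadjusted p under 0.05 there was 1 of 10 in AAVS1 (SNHG12), 2 in RNF25 KO (SNHG1 and SNHG15), 1 in ZNF598 KO (SNHG12), 3 in eS31 K113R (SNHG1, SNHG12 and EPB41L4A-AS1), 2 in GCN2 KO (SNHG5 and SNHG12) and 1 in RNF25 GCN2 DKO (EPB41L4A-AS1). At that threshold stood 4.83, 9.31, 2.99, 5.22, 3.66 and 2.63% of all genes, in the same order of lines. After adjustment, the share of all genes called was 0.117% in AAVS1, 0.469% in RNF25 KO, 0.117% in ZNF598 KO, 0.515% in eS31 K113R, and 0% in both GCN2 KO and RNF25 GCN2 DKO. limma-voom and DESeq2 each called SNHG1 in eS31 K113R and no other member in these 6 comparisons. Members' medians lay between -0.11 (GCN2 KO) and 0.16 (RNF25 KO) on the log2 scale. Of the 10 members, 1 did not overlap between groups in AAVS1, 4 in RNF25 KO and 0 in ZNF598 KO. The count was 3 in eS31 K113R (libraries titled eS32 K223R included), 1 in GCN2 KO and 0 in RNF25 GCN2 DKO. The shares of all genes were 8.78, 10.8, 8.55, 10.3, 9.31 and 7.83%, in the same order.

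SNHG1 was the member nearest to a call. In eS31 K113R it stood at 435, 312 and 304 CPM untreated and at 535, 482 and 577 CPM with azaC, a log2 fold change of 0.60 ± 0.16 (edgeR, adjusted p = 0.0856; with the replicate block adjusted p = 0.0326). Without the untreated libraries titled eS32 K223R, which are the lower ones, only untreated replicate 1 remained, and the value was 0.28. In RNF25 KO it stood at 426, 443 and 480 CPM with azaC, above all untreated libraries (0.47 ± 0.16, adjusted p = 0.269). In AAVS1 it overlapped, at 296, 405 and 446 CPM with azaC (0.03 ± 0.16), and the values in ZNF598 KO (0.10), GCN2 KO (0.11) and RNF25 GCN2 DKO (0.04) were near 0.

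Averaged over the 4 lines with unedited GCN2, azaC raised SNHG1 and lowered SNHG12, 2 of 10 members against 117 genes (1.06%). The change of SNHG1 was 0.30 ± 0.08, at an adjusted p of 0.0496 (edgeR) that stayed under 0.05 in 9 of 32 alternatives. It was 0.22 without the libraries titled eS32 K223R, where only replicate 1 of untreated eS31 K113R remained. SNHG12 fell by 0.47 on the log2 scale (SE 0.11; edgeR, adjusted p = 0.0169), with -0.52 in AAVS1, -0.29 in RNF25 KO, -0.59 in ZNF598 KO and -0.46 in eS31 K113R. Its libraries with azaC stood at 114, 67.1 and 93.5 CPM in AAVS1 and at 74.1, 47.6 and 45.9 CPM in ZNF598 KO, where untreated libraries stood at 145, 139 and 109 CPM and at 97.1, 96 and 59.9 CPM. These groups overlapped. In RNF25 KO (91.2, 80.7 and 85.8 with azaC against 114, 96.4 and 104 CPM) and eS31 K113R (95.8, 59.6 and 99.1 against 143, 101 and 105 CPM, the last 2 titled eS32 K223R) all treated libraries lay below the untreated ones. The SNHG12 call was lost in 5 of 32 alternatives: the fit of the compared groups alone, and without ZNF598 KO untreated replicate 1, eS31 K113R untreated replicate 1, AAVS1 azaC replicate 2 or eS31 K113R azaC replicate 2 (adjusted p 0.0514 to 0.0628). SNHG15 gave 0.53 ± 0.15 (adjusted p = 0.068), with 0.26 to 0.84 in the 6 lines. Over the lines edited for GCN2, 0 of 10 members passed (0 at an unadjusted p under 0.05 and 0 by limma-voom and DESeq2; 0% of genes), and SNHG12 gave -0.30 ± 0.16.

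**Figure D4:**
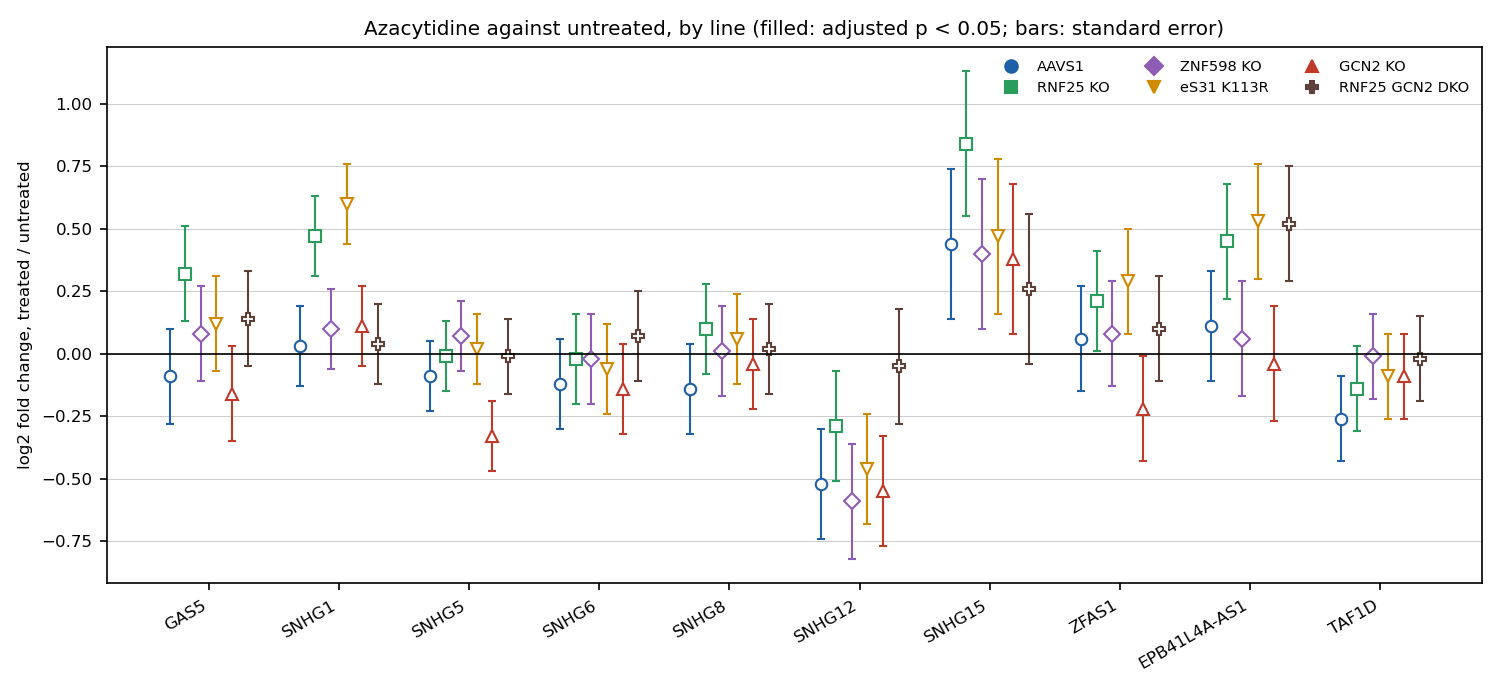
Log2 fold change with azacytidine against untreated for each of the 10 host transcripts in the 6 lines, with standard errors; filled markers would mark an adjusted p below 0.05, and none is filled. SNHG12 lies below 0 in each line, from -0.59 to -0.05, and SNHG15 above 0 in each, from 0.26 to 0.84.

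No azaC response of a member differed between lines (edgeR, 0 of 10 in each of 7 tests, limma-voom and DESeq2 0 as well). At an unadjusted p under 0.05 there was 1 member in eS31 K113R against AAVS1, SNHG1 at 0.58 (interval 0.12 to 1.04; 0.25 without the libraries titled eS32 K223R), and 0 in the others. Of all genes, 0% differed in RNF25 KO against AAVS1 and in ZNF598 KO against AAVS1, 0.00903% in eS31 K113R and 0.00903% in GCN2 KO against AAVS1. The share was 0.0451% in RNF25 GCN2 DKO against AAVS1, 0.117% in it against RNF25 KO, and 0.199% in the GCN2-edited lines against the other 4. For SNHG1 the difference between RNF25 KO and AAVS1 was 0.45 (interval -0.01 to 0.91), and that between RNF25 GCN2 DKO and RNF25 KO was -0.43 (interval -0.90 to 0.03). Differences from AAVS1 were above 0 for 10 of 10 members in RNF25 KO (median 0.24) and in eS31 K113R (0.18, libraries titled eS32 K223R included). They were above 0 for 7 in ZNF598 KO, 3 in GCN2 KO and 9 in RNF25 GCN2 DKO. All of these share the AAVS1 libraries.

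The drugs were also set against each other. In AAVS1 cells azaC left SNHG1 at less than it had with HF (296, 405 and 446 against 837, 788 and 761 CPM; -1.06 ± 0.16, edgeR, adjusted p = 4.88e-05). SNHG5 (188, 168 and 189 against 342, 332 and 305 CPM; -0.84 ± 0.14, adjusted p = 0.000225) and ZFAS1 (411, 342 and 407 against 752, 647 and 670 CPM; -0.83 ± 0.21, adjusted p = 0.0314) were lower as well. These 3 of 10 members passed, against 110 genes (0.993%), with a median of -0.53 over the members. Without a replicate block, the ZFAS1 call was lost when any 1 of the 6 libraries was left out (adjusted p 0.0549 to 0.183). With the replicate block, 5 members were lower. ZFAS1 then gave -0.84 (edgeR, adjusted p = 4.58e-05), and the further ones were GAS5 (-0.54, adjusted p = 0.0391) and SNHG8 (-0.59, adjusted p = 0.00375).

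In RNF25 KO cells 0 of 10 members passed between azaC and HF, against 81 genes (0.731%), with 5 members and 13.8% of all genes at an unadjusted p under 0.05. SNHG1 came nearest, at 426, 443 and 480 against 769, 663 and 621 CPM (-0.61 ± 0.16, edgeR, adjusted p = 0.0538), and it passed by limma-voom and by DESeq2, which called 1 and 2 members. In GCN2 KO cells 0 of 10 passed in edgeR, limma-voom and DESeq2, against 119 genes (1.07%), with 7 members and 11.1% of all genes at an unadjusted p under 0.05. Most members were higher there with azaC than with HF, the opposite sign to AAVS1: SNHG12 by 0.69 ± 0.23, GAS5 by 0.44 ± 0.19 and SNHG1 by 0.38 ± 0.16 (adjusted p 0.158, 0.327 and 0.342). That difference in sign was not tested, and these comparisons share their HF libraries with the ones above.

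Without drug, GAS5 was lower in RNF25 GCN2 DKO than in AAVS1. It stood at 149, 109 and 177 CPM against 257, 197 and 283 CPM, a fall of 0.76 on the log2 scale (SE 0.19; edgeR, adjusted p = 0.0194). It was 1 of 10 members against 157 genes (1.42%), and 6 of 10 members did not overlap, against 12.3% of all genes. SNHG12 (-0.78 ± 0.22, adjusted p = 0.0615), EPB41L4A-AS1 (-0.79 ± 0.23, adjusted p = 0.08) and SNHG8 (-0.56 ± 0.18, adjusted p = 0.149) were among those 6, all lower in RNF25 GCN2 DKO. With the replicate block, these 3 passed beside GAS5 (adjusted p 0.00839, 0.00158 and 0.0064, respectively). The GAS5 call was lost without untreated AAVS1 replicate 1 or 3 or untreated RNF25 GCN2 DKO replicate 1 or 2 (adjusted p 0.0679 to 0.272), and in the fit of those 6 libraries alone (adjusted p = 0.482).

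No member differed between AAVS1 and the other untreated lines (edgeR, limma-voom and DESeq2), where 1.62% of all genes were called in RNF25 KO, 0.93% in ZNF598 KO, 2.87% in eS31 K113R and 1.05% in GCN2 KO. At an unadjusted p under 0.05 there were 0, 5, 1 and 1 of 10 members in that order, beside 9.71, 8.92, 11.8 and 9.58% of all genes. Without the libraries titled eS32 K223R only replicate 1 of untreated eS31 K113R remained, so no count of calls is given for that setting. With the replicate block EPB41L4A-AS1 was lower in ZNF598 KO (-0.60, adjusted p = 0.0396) and SNHG8 in GCN2 KO (-0.52, adjusted p = 0.0153). SNHG8 stood at 468, 488 and 476 CPM in untreated GCN2 KO, below all 3 AAVS1 libraries at 600 to 888 CPM (without the block -0.55 ± 0.18, adjusted p = 0.186).

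How alike the members were is a description over the 15 group means, which share libraries, drugs and controls. The correlation of a member with the mean of the other 9 was 0.91 for EPB41L4A-AS1, 0.89 for SNHG1, 0.88 for GAS5, 0.87 for SNHG8, 0.86 for ZFAS1 and 0.75 for SNHG5 (Pearson's r of log2 CPM). It was 0.66 for SNHG12, 0.42 for TAF1D, 0.27 for SNHG15 and 0.17 for SNHG6. The closest pair was SNHG1 and ZFAS1 (0.94). Outside the members, the genes most like their mean profile were RNF41 (0.903), RBM26-AS1 (0.89), SNHG17 (0.876), CDC16 (0.853) and ANKRD11 (0.847). SNHG17, a further snoRNA host, gave log2 fold changes of 0.74 with HF in AAVS1 and -0.09 in GCN2 KO.

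Other genes of snoRNA production, decay and translation were counted from lists. Of 22 other noncoding hosts, 14 passed the filter, and HF changed 0 of them in AAVS1, 1 in RNF25 KO and 0 in GCN2 KO (medians -0.01, -0.14 and -0.24). Of all genes, 1.54, 1.73 and 1.24% were called in these lines. At an unadjusted p under 0.05 there were 5, 4 and 3 of the 14, beside 11.2, 10.9 and 9.8% of all genes. Averaged over AAVS1 and RNF25 KO, 2 of the 14 were higher, against 5.58% of all genes called. They were SNHG17 (0.71 ± 0.17; edgeR, adjusted p = 0.00437) and SNHG7 (0.53 ± 0.11, adjusted p = 0.000971). The median of the 14 in this average was -0.07, with 7 above 0. SNHG7 also rose with azaC in RNF25 KO (0.76 ± 0.15, adjusted p = 0.00541) and over the 4 lines with unedited GCN2 (0.42 ± 0.08, adjusted p = 0.000413). Of 22 protein-coding hosts tested, 1 was lower with HF in each of the 3 lines: HSPA8, the constitutive HSP70 chaperone and host of C/D box snoRNAs, fell by 3.26 in AAVS1, 3.47 in RNF25 KO and 3.05 in GCN2 KO on the log2 scale (adjusted p = 1.18e-12, 2.98e-13 and 2.28e-11). The ribosomal protein hosts RPL7A (-0.33) and RPL23 (-0.32) were lower over AAVS1 and RNF25 KO with HF.

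None of 21 tested NMD factors and none of 16 tested translation factor mRNAs with a TOP start was called with HF in AAVS1, RNF25 KO or GCN2 KO (edgeR; the other tools were not run on the lists). At an unadjusted p under 0.05 there were 3 of 21 NMD factors in each line, and 1, 0 and 1 of 16 TOP mRNAs, beside 11.2, 10.9 and 9.8% of all genes. The median log2 fold change of the NMD factors was 0.23 in AAVS1, 0.14 in RNF25 KO and 0.15 in GCN2 KO. In the same order, 16, 14 and 15 of 21 were above 0. The medians of the TOP mRNAs were -0.04, -0.12 and -0.14. Of 18 tested mRNAs known as NMD substrates, HF raised 2 and lowered 1 in AAVS1, where 1.54% of all genes were called. The median log2 fold change of these 18 was 0, with 9 above 0 and 4 at an unadjusted p under 0.05. GADD45A, a growth arrest gene, rose by 2.19 ± 0.37 (adjusted p = 0.000112) and PPP1R15A, which recruits the eIF2 phosphatase, by 1.98 ± 0.40 (adjusted p = 0.00163), while HNRNPDL fell by 0.52 (adjusted p = 0.0147). GADD45A also rose by 2.17 ± 0.39 in GCN2 KO with HF (adjusted p = 0.00115), where BAG1, a co-chaperone of HSP70, fell by 1.05 (adjusted p = 0.0141). PPP1R15A is at the same time a target of the stress response. Of 17 stress response genes tested, HF raised 16 in AAVS1, 15 in RNF25 KO and 3 in GCN2 KO (medians 3.31, 2.89 and 0.44), and the difference between GCN2 KO and AAVS1 passed the test for 10 of them.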

How the data were processed

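PolyA RNA of 45 HAP1 libraries was sequenced. The authors deposited raw counts per gene, for which the submitters' processing notes name GRCh38, STAR 2.7.10b and HTSeq 0.9.1. Not given in the sources used here were the strand setting, the gene annotation and whether molecular identifiers were counted. Entries without a symbol (2862) held 0.0286% of counts. Counts of 11078 genes (edgeR filter, minimum count 10) were fitted with edgeR 4.0.16 in R 4.3.3 (TMM scaling, 15 group means, quasi-likelihood tests, two-sided, Benjamini-Hochberg over all genes within a comparison, threshold 0.05). All groups share 30 residual degrees of freedom, and the common biological coefficient of variation was 22.1%. Fits were tested on simulated data. Alternatives were DESeq2 1.42.0 and its size factors, limma-voom (limma 3.58.1), no filter, a replicate block, the compared groups alone, leaving out each library, leaving out the libraries titled eS32 K223R and, chosen after seeing the data, those of extreme GC slope.

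Replicate numbers were checked for pairing: 229 of 315 same-numbered pairs of libraries in different groups had deviations from their group means correlated over 0.1 (median 0.15, against -0.09 for different numbers). In 11 of 17 comparisons between 2 groups every pair passed 0.1, and blocked values stand beside results there. No 2 replicates of a group agreed within sampling noise (chi-square per degree of freedom 3 or more in 45 pairs).

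Named were all members, SESN2 and EIF2AK4 as checks, called genes of each list (at most 4) and the 5 genes most like the members' mean profile; RNF25 and ZNF598 were added as checks after their values were seen. The members and lists were chosen with earlier results of these data known.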

Additional observations from a re-analysis of the deposited data

Results flagged for a closer look

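The response of SNHG1 to halofuginone differed between lines. It was 1.08 on the log2 scale in AAVS1 and -0.27 in GCN2 KO cells, and the test of the difference gave -1.35 (SE 0.23; edgeR, adjusted p = 0.000389). All 3 treated AAVS1 libraries lay above all untreated ones, and the GCN2 KO groups overlapped.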

How the results depend on the processing

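No called member changed direction. Of 290 repeats of 17 called member results, 233 kept the call and 57 lost it, and of 481 repeated counts of members called, 426 stayed within 1.5 times. With the replicate block, the members called were 1 for azaC in eS31 K113R, 5 for HF in RNF25 KO, 3 for HF in GCN2 KO, 4 for azaC over the 4 lines, 1, 1 and 4 for untreated ZNF598 KO, GCN2 KO and RNF25 GCN2 DKO, 6 for the HF difference of GCN2 KO and AAVS1, 5 for azaC against HF in AAVS1 and 4 in RNF25 KO; other counts stayed within 1.5 times. In the 6 comparisons where replicates did not pair, these are counts of calls only, and libraries correlated best with their own number for 1 to 3 of 3 numbers. limma-voom and DESeq2 each called 1 for azaC in eS31 K113R, 2 for HF in RNF25 KO and 2 in untreated RNF25 GCN2 DKO; for azaC against HF in RNF25 KO they called 1 and 2, and DESeq2 called 5 for the HF difference. The compared groups alone gave 1 for HF in AAVS1, 2 for HF in GCN2 KO, 0 for azaC over the 4 lines and 0 in untreated RNF25 GCN2 DKO. Without a filter there were 1 for azaC over the 4 lines and 2 for the HF difference. Without the libraries of extreme GC slope, azaC over the 4 lines gave 1, and untreated RNF25 GCN2 DKO gave 2. Leaving out single libraries gave 0 to 1 for azaC in eS31 K113R, 1 to 2 for HF in RNF25 KO, 0 to 2 for azaC over the 4 lines, 3 to 5 for HF over AAVS1 and RNF25 KO, 0 to 2 in untreated RNF25 GCN2 DKO, 1 to 2 for the HF difference and 0 to 2 for azaC against HF in RNF25 KO. Fewer samples were fitted in the groups-alone and leave-one-out settings; otherwise the cause was not tested. Depth limits SNHG15 most, with a median of 48 counts a library.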
